A study of Mus musculus with 7 samples.

Results

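The 10 Notch genes described here were 4 receptors (Notch1, Notch2, Notch3 and Notch4), 3 ligands (Jag1, Jag2 and Dll1) and 3 target genes (Hes1, Hey1 and Heyl). They were taken by symbol from a count table of 22629 rows, of which 17489 had enough counts for a test, all 10 Notch genes among them. They were listed when results of the same contrast were already known, so their differences between groups are a description, given as values with their errors and, below, as counts past the thresholds of the test over all genes, from which nothing is read. Notch receptors are transmembrane proteins that are cleaved when a ligand on a neighboring cell binds them. The released intracellular domain joins the DNA-binding protein Rbpj and Mastermind coactivators in the nucleus and switches on genes of the Hes and Hey families, which encode transcriptional repressors. In the pancreas Notch signaling maintains progenitor cells and is reactivated during the formation of ductal precursor lesions, and in tumor stroma it acts in endothelial cells and in the mural cells, pericytes and smooth muscle, that wrap vessels.

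RNA was sequenced from 7 subcutaneous (s/c) tumors of C57BL/6 mice, each harvested 2 weeks after inoculation of pancreatic ductal adenocarcinoma (PDA) cells. All tumors were formed with the mouse line 1242, which came from a KPC tumor (a mouse model in which Pdx1-Cre switches on mutant alleles in the pancreas) and which had been transduced with Cas9 and a scrambled guide, sgScramble. In 3 tumors, numbered 1, 4 and 5, these were sgScramble control PDA cells. In 4 tumors, numbered 15, 16, 18 and 2, the sgScramble cells also carried a doxycycline (Dox)-inducible vector for icOVA, an ovalbumin kept in the cytoplasm, which was induced by Dox in the food. The icOVA line was sorted and cloned from single cells, and its vector also encodes GFP. Neither the labels nor the study's methods say whether the cells of these sgScramble tumors were a clone, carried the vector or were in mice given Dox. Its growth experiment used vector-carrying cells with and without Dox, and the study does not state that the sequenced controls came from it. The methods also give a larger number of injected cells for the icOVA-inducible tumors than for s/c tumors in general. The antigen, the clone, the drug and the number of injected cells thus cannot be told apart. The mice of the study were young adults at inoculation, and the labels give no sex. The study introduced icOVA to model the immunogenicity of neoantigens, whereas the contrast here compares the groups with all these differences together.

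Total counts ran from 30904855 to 37510591 per tumor. OVA had 85 to 151 counts in the sgScramble tumors and 3413 to 10750 in the icOVA tumors, a difference in the labelled direction. The control tumors thus also had some OVA counts, the source of which was not tested. The summed expression of epithelial markers ran from 3178 CPM (counts scaled by library size) in icOVA tumor 18 to 5494 in icOVA tumor 16. Not all of these markers were abundant, as Epcam had 4.29 to 18.5 CPM and Cldn4 0.18 to 1.68 CPM. In the edgeR quasi-likelihood test over all genes, 588 were higher and 444 lower in icOVA tumors at a Benjamini-Hochberg adjusted p below 0.05. These calls rested on the tumors included, as 0 genes passed without any 1 of controls 1 and 5 and icOVA tumor 15, where 3087, 2936 and 3415 genes still had an unadjusted p below 0.05, and 8 passed without icOVA tumor 2.

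Among the receptors, Notch2 transcripts prevailed in both groups, and Notch3 varied most between tumors. Notch1 (ENSMUSG00000026923.15, chromosome 2 of GRCm38, 26457903 to 26516663, minus strand), a broadly expressed receptor, had 137, 135 and 104 CPM in sgScramble tumors 1, 4 and 5 and 122, 142, 131 and 125 CPM in icOVA tumors 15, 16, 18 and 2. Of the icOVA values, 3 lay inside the range of the controls and tumor 16 just above it, and the log2 fold change of icOVA over sgScramble was 0.05 (SE 0.11). Notch2 (ENSMUSG00000027878.11, chromosome 3, 98013527 to 98150361, plus strand), a receptor of epithelial and myeloid cells among others, had 329, 283 and 285 CPM in the controls and 209, 294, 219 and 233 CPM in the icOVA tumors. Tumors 15, 18 and 2 were below every control, whereas tumor 16 was above controls 4 and 5, and the log2 fold change was -0.32 (SE 0.13).

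Notch3 (ENSMUSG00000038146.8, chromosome 17, 32120820 to 32166852, minus strand), the receptor best known from pericytes and vascular smooth muscle, had 11.7, 18.2 and 8.41 CPM in the controls and 27.1, 12.9, 51.1 and 18.5 CPM in the icOVA tumors. Its groups overlapped, since icOVA tumor 16 lay below control 4. Its highest tumor, icOVA 18, had 51.1 CPM, and the log2 fold change of 1.10 (SE 0.48) ran from 0.61 to 1.45 as each tumor was left out in turn. Notch4 (ENSMUSG00000015468.14, chromosome 17, 34564268 to 34588503, plus strand), a receptor largely of endothelial cells, had 14.8, 20.4 and 13.1 CPM in the controls and 24.2, 15.2, 28.5 and 21.7 CPM in the icOVA tumors. As for Notch3, icOVA tumor 16 fell among the controls and icOVA tumor 18 was highest, and the log2 fold change was 0.48 (SE 0.23).

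Of the ligands, Jag1 was the most expressed and the most even across tumors. Jag1 (ENSMUSG00000027276.7, chromosome 2, 137081456 to 137116644, minus strand), a Serrate-type ligand, had 65.8, 75.4 and 65.3 CPM in the controls and 75.3, 78.8, 67.2 and 77.4 CPM in the icOVA tumors. The ranges overlapped, with a log2 fold change of 0.12 (SE 0.08). Jag2 (ENSMUSG00000002799.6, chromosome 12, 112907819 to 112929776, minus strand), its paralog, had 4.58, 4.95 and 3.93 CPM in the controls and 5.02, 2.84, 10.0 and 4.63 CPM in the icOVA tumors. Both the lowest and the highest Jag2 value were in icOVA tumors, 16 and 18, and the log2 fold change of 0.33 (SE 0.39) was -0.11 without tumor 18. Dll1 (ENSMUSG00000014773.13, chromosome 17, 15367354 to 15376872, minus strand), a Delta-type ligand, had 14.2, 10.2 and 15.9 CPM in the controls and 9.99, 8.60, 7.56 and 10.5 CPM in the icOVA tumors. Control 4 was low and kept the groups from separating, since icOVA tumor 2 was just above it, and the log2 fold change was -0.55 (SE 0.18).

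The 3 target genes went different ways. Hes1 (ENSMUSG00000022528.8, chromosome 16, 30064384 to 30067796, plus strand), a repressor that Notch induces directly in many cell types, had 36.8, 39.5 and 42.8 CPM in the controls and 22.4, 19.97, 20.8 and 22.8 CPM in the icOVA tumors. The groups were well apart, and the spread within each was small. Mean expression was 39.7 ± 3.0 CPM (SD, n = 3) in controls and 21.5 ± 1.34 CPM (SD, n = 4) in icOVA tumors, 45.9% lower, and the log2 fold change was -0.89 (SE 0.09). It ran from -0.94 to -0.82 as each tumor was left out.

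Hey1 (ENSMUSG00000040289.8, chromosome 3, 8663359 to 8667256, minus strand), a repressor known from endothelial cells, had 6.995, 7.93 and 5.44 CPM in the controls and 8.81, 9.40, 8.72 and 11.7 CPM in the icOVA tumors. Every icOVA tumor was above every control, by less than 1 CPM between control 4 and icOVA tumor 18, and the log2 fold change was 0.51 (SE 0.18), a 1.42-fold higher level. Heyl (ENSMUSG00000032744.4, chromosome 4, 123233556 to 123249875, plus strand), a target known from vascular smooth muscle, had 3.25, 7.53 and 3.23 CPM in the controls and 3.19, 2.01, 7.22 and 3.67 CPM in the icOVA tumors. One tumor of each group, control 4 and icOVA tumor 18, stood above the others, and the log2 fold change of -0.22 (SE 0.48) was -0.66 without icOVA tumor 18 and 0.32 without control 4. Heyl had the fewest counts of the 10 genes, from 70 to 251 per tumor.

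**Figure D1:**
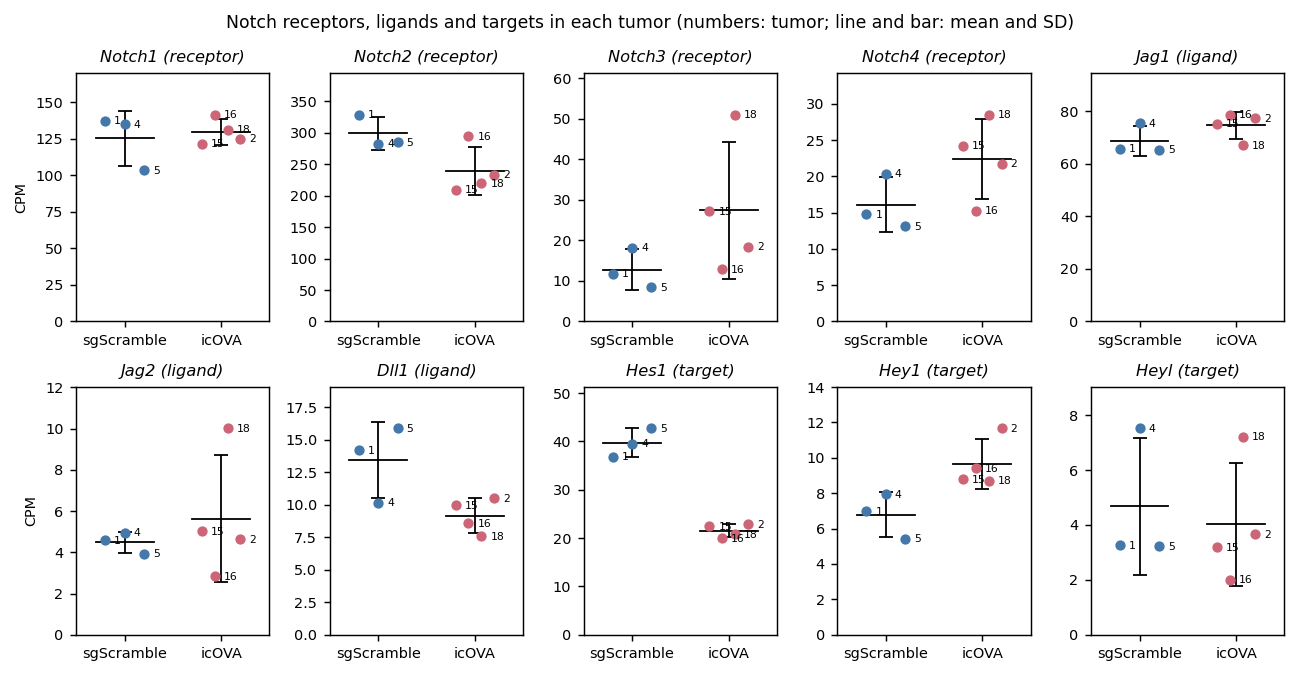
CPM of the 10 Notch genes in each of the 3 sgScramble and 4 icOVA tumors, 1 panel per gene with its own axis from 0; each point is a tumor with its number, the line the group mean and the bar the SD. Hes1 (19.97 to 22.8 against 36.8 to 42.8 CPM) and Hey1 are the genes whose groups do not overlap, and icOVA tumor 18 is highest for Notch3, Notch4 and Jag2.

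The groups did not overlap for 1 of the 10 genes in the higher direction, Hey1, and for 1 in the lower direction, Hes1. Over all genes tested, 11.3% were higher without overlap and 13.3% lower without overlap. In the edgeR test over all genes, 0 of the 10 were called higher and 1, Hes1, lower, where 3.36% and 2.54% of all genes tested were called. Because the genes were listed with this contrast known, nothing is read from these counts. At an unadjusted p below 0.05, Hey1 was higher and Hes1, Dll1 and Notch2 were lower, against 13.4% and 13.8% of all genes. DESeq2 called Hey1 higher and Dll1 and Hes1 lower, against 8.91% and 7.31% of all genes, and limma-voom called 0 higher and Hes1 lower, against 2.96% and 2.42%. Hes1 was not called without sgScramble tumor 1 or 5 or icOVA tumor 15 or 2, fits in which at most 8 of all genes passed. The median log2 fold change of the 10 genes was 0.08, that of all genes tested -0.0048.

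Genes were set beside each other per length, as CPM per kb of annotated exon. Notch2 had 27.7 ± 2.41 CPM per kb in sgScramble tumors (SD, n = 3) and 22.2 ± 3.54 in icOVA tumors (SD, n = 4), and Notch1, the next receptor, had 8.81 ± 1.32 and 9.13 ± 0.617. These ranges did not meet in either group. Notch4 had 2.00 ± 0.470 CPM per kb in controls and 2.78 ± 0.687 in icOVA tumors, and Notch3 had 1.58 ± 0.615 and 3.39 ± 2.08. The order of the Notch3 and Notch4 means thus changed between groups, and their ranges over tumors overlapped in both. Within each control Notch4 was above Notch3, with 1.84 against 1.45, 2.53 against 2.25 and 1.63 against 1.04 in tumors 1, 4 and 5. Among the icOVA tumors, Notch3 was above Notch4 in 15 and 18 and below it in 16 and 2.

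Jag1 had 11.8 ± 0.973 CPM per kb in controls and 12.8 ± 0.885 in icOVA tumors, above Dll1 with 3.19 ± 0.700 and 2.17 ± 0.317 and Jag2 with 0.644 ± 0.0740 and 0.809 ± 0.443. Among the targets, Hes1 led with 19.5 ± 1.47 CPM per kb in controls and 10.5 ± 0.659 in icOVA tumors, followed by Hey1 with 2.08 ± 0.386 and 2.96 ± 0.426 and Heyl with 0.914 ± 0.485 and 0.786 ± 0.439. In neither group did the ranges of neighboring ligands or targets overlap. A bulk tumor does not tell fewer cells of a type from less RNA per cell, and this holds for every level given here.

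Expressed as a share of its class, Hes1 made up 86.7 ± 3.44% of the summed target transcripts per kb in controls (SD, n = 3) and 73.9 ± 2.48% in icOVA tumors (SD, n = 4). Hey1 took 9.28 ± 1.85% and 20.7 ± 2.23%. Of the receptor transcripts, Notch2 made up 69.2 ± 4.05% in controls and 59.1 ± 6.56% in icOVA tumors, and Notch3 3.92 ± 1.44% and 9.04 ± 5.23%. The Notch3 share was highest in icOVA tumor 18, at 16.01%, where Notch2 had its lowest share, 51.6%. Of the ligands, Dll1 made up 20.4 ± 4.82% in controls and 13.7 ± 1.49% in icOVA tumors.

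**Figure D2:**
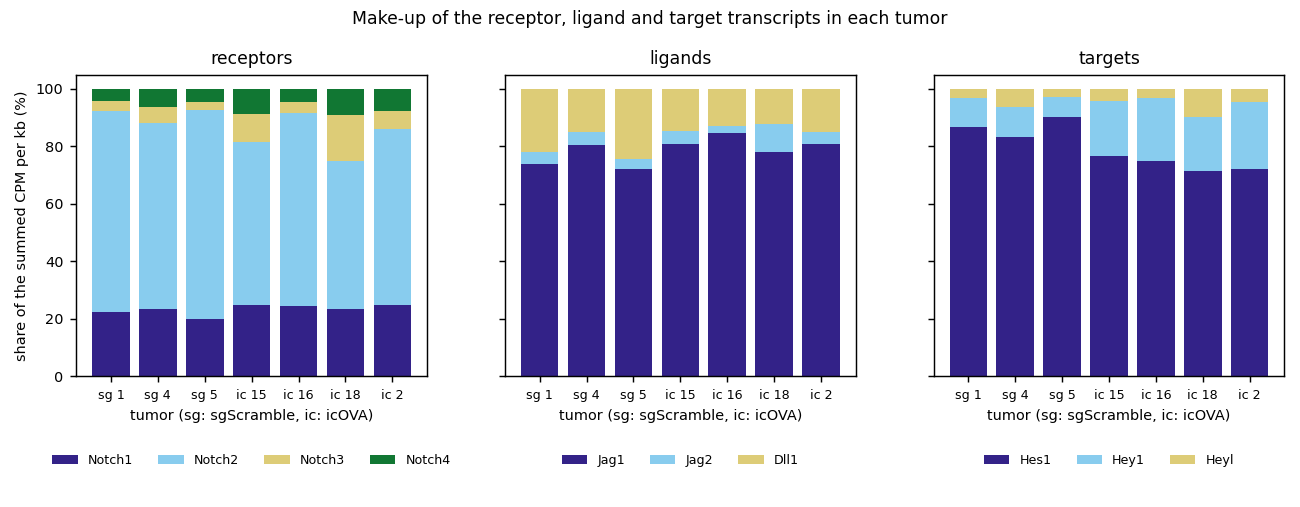
Share of each receptor, ligand and target in the summed CPM per kb of its class, in percent, 1 stacked bar per tumor (sg, sgScramble; ic, icOVA). The Hes1 share of the targets is above 83% in the 3 controls and below 77% in the 4 icOVA tumors, and the Notch3 share of the receptors is largest in icOVA tumor 18, at 16.01%.

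Notch4 and Notch3 were set beside marker genes of the vessel cells from which they are best known. Bulk RNA does not show which cells of these tumors carried their transcripts. The 10 endothelial markers, Pecam1 and Cdh5 among them, summed to 289, 406 and 267 CPM in the controls and 613, 341, 789 and 520 CPM in the icOVA tumors. All 10 had a positive log2 fold change with a median of 0.84, 0 were called by edgeR or limma-voom and 7 by DESeq2, and 9 had an unadjusted p below 0.05. No marker of this list was at 0 in any tumor. Egfl7 is in this list and in the wider pathway list below. From the highest to the lowest tumor, the endothelial sum, Notch4 and Notch3 shared one order, icOVA 18, icOVA 15, icOVA 2, sgScramble 4, icOVA 16, sgScramble 1 and sgScramble 5. The order was not particular to endothelial genes, since the macrophage marker Mrc1 and Mfng of the wider pathway list had it too.

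Relative to the endothelial sum, Notch4 was lower in every icOVA tumor than in any control, a difference of -0.31 on the log2 scale. The log2 ratio of Notch4 to that sum was -4.29, -4.32 and -4.35 in the controls and -4.66, -4.48, -4.79 and -4.58 in the icOVA tumors. Its SD within groups was 0.10, against 0.36 for log2 CPM of Notch4 itself. For Notch3 the log2 ratio to the endothelial sum was -4.62, -4.48 and -4.99 in the controls and -4.50, -4.73, -3.95 and -4.81 in the icOVA tumors, which overlapped. The difference was 0.20, with a within-group SD of 0.34, against 0.74 for log2 CPM of Notch3. The part of endothelial content in the Notch3 and Notch4 differences was not tested.

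The 11 mural markers summed to 446, 765 and 495 CPM in the controls and 681, 485, 987 and 545 CPM in the icOVA tumors, which overlapped. By edgeR 0 were called higher and 2 lower, the contractile genes Tagln (log2 fold change -0.98, SE 0.21) and Cnn1 (-1.47, SE 0.32), although 7 of the 11 had positive values and the median was 0.51. DESeq2 called 1 higher and 2 lower, limma-voom 0 higher and 1 lower, and 3 were higher and 2 lower at an unadjusted p below 0.05. The log2 ratio of Notch3 to the mural sum was -5.25, -5.39 and -5.88 in the controls and -4.65, -5.23, -4.27 and -4.88 in the icOVA tumors. By this ratio the icOVA tumors were higher without overlap, by 0.75 on the log2 scale, although control 1 and icOVA tumor 16 nearly met. The sum mixes markers of unlike direction. Acta2 had a log2 fold change of -0.39 (SE 0.25), the pericyte genes Rgs5 and Abcc9 1.17 (SE 0.41) and 0.89 (SE 0.35). Rgs5 and Abcc9 came near the 1.10 (SE 0.48) of Notch3. Lower values were those of Kcnj8 with 0.59 (SE 0.43), Pdgfrb with 0.36 (SE 0.31) and Cspg4 with -0.0006 (SE 0.28). The part of mural content in the Notch3 difference was not tested.

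Heyl and Hey1, both known from vessels, were set against the same sums. The log2 ratio of Heyl to the endothelial sum was -6.47, -5.75 and -6.37 in the controls and -7.59, -7.41, -6.77 and -7.15 in the icOVA tumors, lower in every icOVA tumor by a mean difference of -1.03. Against the mural sum the Heyl groups overlapped, with a difference of -0.48. For Hey1 the groups overlapped against both, with log2 differences of -0.26 to the endothelial and 0.28 to the mural sum.

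How far Hes1 was lower relative to epithelial markers depended on the markers and on icOVA tumor 18. The 10 epithelial markers summed to 5327, 5006 and 5305 CPM in the controls and 5338, 5494, 3178 and 5094 CPM in the icOVA tumors. Their median log2 fold change was 0.05, and by edgeR and limma-voom 0 of them were called. Sox9, a transcription factor of pancreatic ducts, was the marker lower at an unadjusted p below 0.05 and with DESeq2, with 68.3, 63.0 and 71.8 CPM in the controls and 45.2, 48.9, 27.4 and 49.1 CPM in the icOVA tumors and a log2 fold change of -0.67 (SE 0.19, edgeR adjusted p = 0.0786). Muc1 (-0.90, SE 0.48) and Cdh1 (-0.54, SE 0.28) had negative values as well, with overlap. The log2 ratio of Hes1 to the sum of all 10 was -7.18, -6.98 and -6.95 in the controls and -7.90, -8.10, -7.26 and -7.80 in the icOVA tumors. The groups did not overlap, the difference was -0.73, and icOVA tumor 18, with the lowest epithelial sum, was nearest to the controls. In a division of the list made after the data were seen, the 5 keratins, which held 3781 of the 5327 CPM in control 1, gave a difference of -0.89 without overlap. The other 5 markers gave -0.17, and the groups overlapped. The log2 ratio to these 5 was -5.39, -4.99 and -5.29 in the controls and -5.60, -5.94, -4.44 and -5.61 in the icOVA tumors. Tumors 15, 16 and 2 were thus below every control, and icOVA tumor 18 alone was above them.

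The fibroblast marker sum ran from 5693 CPM in icOVA tumor 16 to 37120 CPM in icOVA tumor 18, with 6754 to 15834 CPM in the controls. All 10 had positive log2 fold changes with a median of 1.01, 0 were called by edgeR or limma-voom and 2 by DESeq2, and 3 had an unadjusted p below 0.05. Against this sum Hes1, Notch1, Notch2, Jag1, Jag2 and Dll1 each overlapped between groups. Notch3 was not set against it, although icOVA tumors 18 and 15 were the highest for both. Against the epithelial sum Notch1, Notch2, Jag1, Jag2 and Dll1 overlapped as well, with log2 differences from -0.38 for Dll1 to 0.34 for Jag2.

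**Figure D3:**
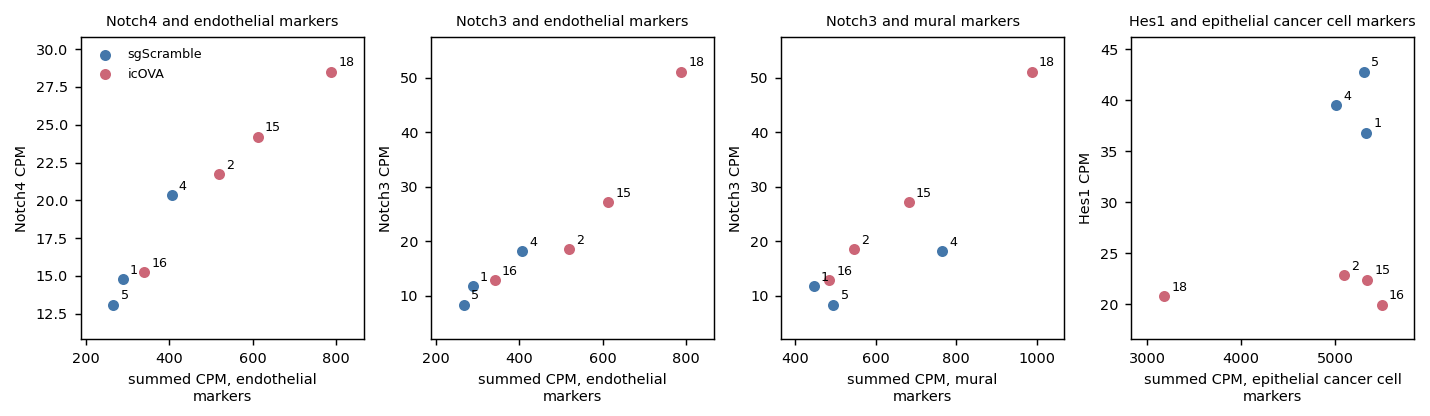
CPM of Notch4, Notch3 and Hes1 (vertical axes) against the summed CPM of a marker list (horizontal axes), linear axes that do not start at 0, 1 point per tumor with its number, blue for sgScramble and red for icOVA. Notch4 and the endothelial sum run together from control 5 (13.1 CPM at 267) to icOVA tumor 18 (28.5 CPM at 789), whereas Hes1 is lower in the icOVA tumors also where the sum of all 10 epithelial markers is alike.

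Leukocyte markers differed in the same contrast. By edgeR 9 of 10 T cell markers were called higher (summed 104 to 168 CPM in controls and 237 to 380 CPM in icOVA tumors). Of 10 macrophage markers 3 were, Cd68, Itgam and Mertk (1126 to 1516 and 1626 to 2189 CPM). Of 6 tested B and plasma cell markers 2 were, Jchain and Mzb1 (3.51 to 4.51 and 8.25 to 14.8 CPM). Of all genes tested 3.36% were. In the same order of lists, DESeq2 called 10, 7 and 2 higher and limma-voom 9, 4 and 2, against 8.91% and 2.96% of all genes. At an unadjusted edgeR p below 0.05, 10, 8 and 2 were higher, against 13.4% of all genes. Skeletal muscle markers summed to 7.96 to 113 CPM in controls and 12.0 to 208 CPM in icOVA tumors, adipocyte markers to 53.3 to 59.0 and 44.0 to 143 CPM, and Schwann cell markers to 43.3 to 47.6 and 36.2 to 104 CPM, with 0 called in each by edgeR, DESeq2 or limma-voom except 1 adipocyte marker called higher by DESeq2. At an unadjusted p below 0.05 these lists had 0 muscle, 1 adipocyte and 2 Schwann cell markers, and Des is in both the muscle and the mural list. The part of these cells in the values of the Notch genes was not tested.

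Of 62 further genes of the pathway, listed by role, 58 had a row and 56 were tested. By edgeR 0 were called higher and 2 lower in icOVA tumors, Tle2 and Maml3, where 3.36% and 2.54% of all genes were. At an unadjusted p below 0.05, 4 were higher and 9 lower, where 13.4% and 13.8% of all genes were. DESeq2 called 2 higher, Psen2 and Mfng, and 9 lower, where it called 8.91% and 7.31% of all genes, and limma-voom called 0 and 2, where it called 2.96% and 2.42%. The groups did not overlap for 3 in the higher and 9 in the lower direction, where 11.3% and 13.3% of all genes did not, and the median log2 fold change was 0.04. Dll3, Hes2, Hes3 and Hes5 were not analysed here, and Dner and Hes7 had too few counts for a test.

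Tle2, a Groucho-family corepressor that Hes proteins recruit, had 26.6, 19.6 and 21.8 CPM in the controls and 8.51, 10.5, 12.9 and 9.67 CPM in the icOVA tumors. It fell by 1.13 on the log2 scale (SE 0.17, adjusted p = 0.0230, edgeR). The groups were well apart. Maml3, a Mastermind coactivator of the Notch intracellular domain, had 20.5, 17.6 and 18.7 CPM in the controls and 10.3, 13.8, 10.4 and 12.5 CPM in the icOVA tumors. It fell by 0.69 (SE 0.13, adjusted p = 0.0335, edgeR), also without overlap. Neither passed without sgScramble tumor 1 or 5 or icOVA tumor 15 or 2, with adjusted p values in those edgeR fits from 0.0641 to 0.122 for Tle2 and from 0.0778 to 0.155 for Maml3, while the log2 fold changes kept to -1.25 to -0.99 and -0.78 to -0.62 over all tumors left out.

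The promoters of these 2 genes are shown because they were the pathway genes that passed the test. Each sequence is the 250 bases before the transcription start in RefSeq on GRCm38.p6, with a motif in capitals, for Tle2 at chr10:81575037-81575286 on the plus strand and for Maml3 at chr3:52105007-52105256 on the minus strand.
Tle2: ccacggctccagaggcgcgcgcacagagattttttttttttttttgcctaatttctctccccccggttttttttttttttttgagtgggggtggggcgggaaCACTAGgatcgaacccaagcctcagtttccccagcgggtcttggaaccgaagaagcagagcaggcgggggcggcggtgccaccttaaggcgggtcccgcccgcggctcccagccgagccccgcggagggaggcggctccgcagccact
Maml3: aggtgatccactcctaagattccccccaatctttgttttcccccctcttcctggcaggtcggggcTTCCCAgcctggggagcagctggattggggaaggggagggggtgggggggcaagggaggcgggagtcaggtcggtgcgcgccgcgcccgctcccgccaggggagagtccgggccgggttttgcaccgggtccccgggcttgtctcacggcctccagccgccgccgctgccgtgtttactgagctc
The capitals in Tle2 are a match to CACNAG, the N box to which Hes1 binds, 148 to 143 bases before the start, and those in Maml3 are TGGGAA, the core bound by Rbpj, on the other strand, 185 to 180 bases before it. Both strands were searched, and the motifs do not overlap each other. CACNAG was in 36.7% and TGGGAA in 21.6% of 32851 promoters of this length. RefSeq promoters were at hand for 7 of the 10 Notch genes, in 8 windows. CACNAG was in 3 of the 8, those of Notch1, Notch2 and Notch3, and TGGGAA in 0 of the 8.

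In the 6 other role lists, with 3, 6, 5, 10, 9 and 5 genes tested, 0 genes were called by edgeR or limma-voom. At an unadjusted p below 0.05, 3 were higher and 3 lower, where 13.4% and 13.8% of all genes were. Of these, DESeq2 called 2 higher and 3 lower, where it called 8.91% and 7.31% of all genes. Among the other ligands, Dll4, the Delta-type ligand of sprouting endothelium, had 12.8, 14.1 and 10.6 CPM in the controls and 14.99, 9.94, 19.0 and 15.1 CPM in the icOVA tumors (log2 fold change 0.24, SE 0.21, edgeR adjusted p = 0.503). Its lowest and highest tumors, icOVA 16 and 18, were in the same group. Dlk1, a non-canonical ligand, differed by 1.69 on the log2 scale (SE 0.74, edgeR adjusted p = 0.189) at 0.128 to 1.27 CPM, a level of few counts.

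Among genes that act on the receptors, Mfng, a Fringe glycosyltransferase, had 7.28, 8.63 and 6.59 CPM in the controls and 12.7, 7.97, 19.3 and 12.0 CPM in the icOVA tumors, a log2 difference of 0.79 (SE 0.28, edgeR adjusted p = 0.122). Tumor 16 was again among the controls, and without it the log2 fold change was 0.97 and passed (adjusted p = 0.0402, edgeR). Lfng, its paralog, had a log2 fold change of 0.19 (SE 0.16). Aph1c, a gamma-secretase subunit, had 4.06 to 4.26 CPM in the controls and 4.67 to 8.83 CPM in the icOVA tumors (log2 fold change 0.63, SE 0.23, edgeR adjusted p = 0.127). Dtx1, a Deltex ubiquitin ligase, had a log2 fold change of 1.22 (SE 0.57) and Neurl1a, a Neuralized ligase for ligands, of 0.24 (SE 0.38), both at about 1 CPM or less.

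Rbpj, through which the receptors act on DNA, had 222, 182 and 206 CPM in the controls and 201, 242, 208 and 231 CPM in the icOVA tumors, a log2 difference of 0.12 (SE 0.10, edgeR adjusted p = 0.474). The groups overlapped widely. Nrarp, a target that feeds back on the receptor, had 13.6, 13.6 and 12.7 CPM in the controls and 10.9, 10.7, 15.6 and 14.8 CPM in the icOVA tumors, a log2 difference of -0.03 (SE 0.16, edgeR adjusted p = 0.908). Its icOVA values lay on both sides of the controls. Hey2, the paralog of Hey1, had a log2 fold change of 0.55 (SE 0.56) at less than 1 CPM in every tumor.

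**Figure D4:**
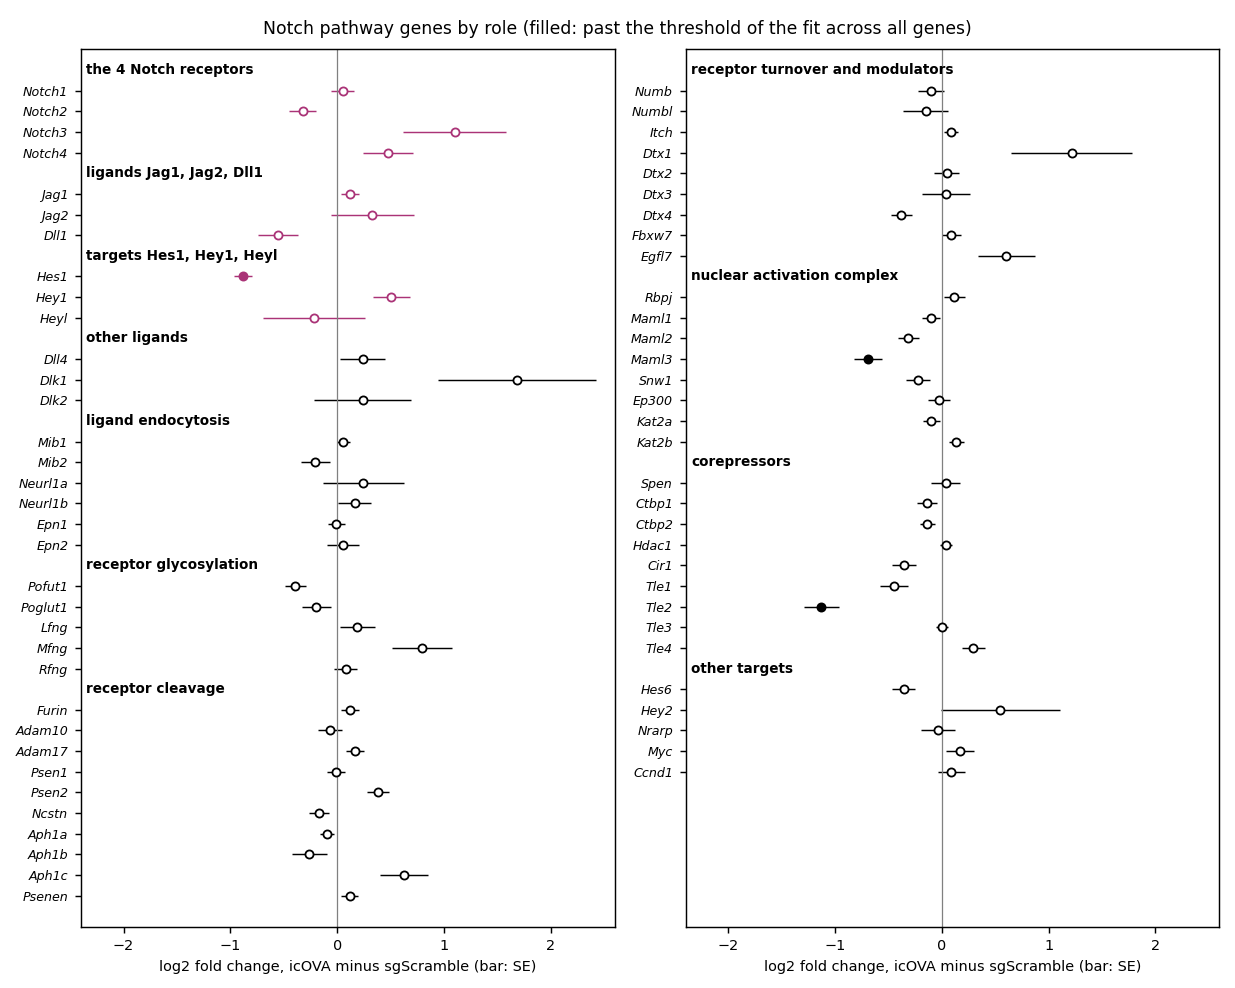
Log2 fold change of icOVA over sgScramble tumors (horizontal axis) with SE for the 10 Notch genes and the tested genes of the wider pathway except 1 that is not shown, grouped by role; filled points passed the adjusted p threshold of 0.05 over all genes. Among the further pathway genes the filled points are Tle2 (-1.13) and Maml3 (-0.69), and the values of the 10 Notch genes run from -0.89 for Hes1 to 1.10 for Notch3.

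To find genes with a like pattern over the 7 tumors, log2 CPM was centred on its mean over tumors and the root mean square difference to each Notch gene was taken over 11969 genes. The size of these differences depends on how far each Notch gene itself varied, so they do not rank the Notch genes. The root mean square of the centred values was 0.108 for Jag1, 0.227 for Notch2 and 0.793 for Notch3. Aldh2 (0.034) and Hdac6 (0.039) were nearest to Notch2, and BC055324 (0.028) and 8030462N17Rik (0.030) to Jag1. For Hes1 they were Scara3 (0.099) and Apbb3 (0.121), and for Hey1 Csrnp1 (0.078) and Ccr1 (0.101), a chemokine receptor of leukocytes. The endothelial tight junction gene Cldn5 (0.080) and Plekhg5 (0.122) were nearest to Jag2, and Lactb (0.084) and Tfpi (0.092), an anticoagulant made by endothelium, to Notch4.

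Nkrf (0.052) and Sap130 (0.053) were nearest to Notch1, Pygb (0.075) and Pyurf (0.078) to Dll1, Dzip1 (0.147) and Iffo1 (0.178) to Notch3, and Ckb (0.193) and Myl9 (0.194), a smooth muscle myosin light chain, to Heyl. With deviations from the group means in place of the overall mean, Dll1 kept both neighbors, Notch2 kept Aldh2 and Jag2 kept Cldn5, and the other neighbors changed. Hes1 then had Zmynd19 and Rnf10, Notch3 had Tgfb1i1 and Hic1, and Notch4 had Traf3ip3 (0.047) and Kcnab2 (0.049) in place of Lactb and Tfpi.

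Overlapping annotated genes with a row had at most 1.04% of the counts of the Notch gene, for Gm17276, which lies antisense to Notch3, and 0.367% for 0610009E02Rik at Notch1. The library kit kept strand, whereas the setting used in counting is not given in the sources used here.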

How the data were processed

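Libraries were made with a stranded Illumina TruSeq kit and sequenced as single reads. The authors deposited raw counts per gene, without normalization, for 7 tumors; per the labels the build was mm10, and aligner, counter and annotation are not given in the sources used here. The labels call the molecule polyA RNA and the study's methods name a total RNA kit. Tumors were grouped by label, no batch is labelled, and the study's methods describe individual tumors, each from cells injected into the right flank, so p-values measure the spread between tumors of 1 line per group.

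Genes were filtered with filterByExpr (minimum count 10, minimum total 15), scaled by TMM and tested with the quasi-likelihood test of edgeR 4.0.16 in R 4.3.3, with Benjamini-Hochberg adjustment over 17489 genes. Symbols, loci and exon lengths were from GENCODE M21 on GRCm38. Log2 CPM used a prior count of 2. DESeq2 1.42.0, limma-voom (limma 3.58.1), other scalings and filters, and each tumor left out were alternatives. The scripts were tested on simulated data. For likeness, genes with a mean of at least 5 CPM were used and the 2 nearest named.

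The Notch genes and all lists were chosen with earlier results of these data known. Of each role list, genes past the threshold were named, or else the largest absolute log2 fold change, and Dll4, Dll3, Rbpj, Lfng and Nrarp always. Psen2 was outside this rule and was named after its values were seen. A further gene of the pathway is counted but not reported by name here.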

Additional observations from a re-analysis of the deposited data

Results flagged for a closer look

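The summed expression of the 10 epithelial markers was low in icOVA tumor 18, with 3178 CPM against 5094 to 5494 CPM in the other icOVA tumors. On the log2 scale its gap to the nearest tumor was 0.862 of the range of the group, more than the 95% limit of Dixon's test allows for 4 samples. Chance marks about 1 in 20 groups, which is 1.6 of the 32 groups examined. Tumor 18 also had the highest Notch3, Notch4 and Jag2 and the highest endothelial and fibroblast sums. Without it the log2 ratio of Hes1 to the epithelial sum differed by -0.90 in place of -0.73.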

How the results depend on the processing

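No paired analysis was possible because no tumor number occurs in both groups. The log2 fold changes of the 10 Notch genes moved by less than the SD within groups in 70 of 70 values from other tools, scalings and filters. With a tumor left out, Notch1 (-0.06 to 0.12), Jag2 (-0.11 to 0.55) and Heyl (-0.66 to 0.32) changed sign. The difference of Hes1 relative to epithelial markers was -0.17 with the 5 that are not keratins, a choice made after seeing the data. By that ratio icOVA tumor 18 was above every control and the other icOVA tumors were below. With DESeq2, 1558 genes were higher and 1278 lower, of the wider pathway 2 and 9 and of the 10 Notch genes 1 and 2. Scaling by total counts gave 4 lower pathway genes, Tle2 and Maml3 among them. With each tumor left out, calls ran from 0 to 1014 higher and 0 to 716 lower over all genes, from 0 to 1 and 0 to 6 in the wider pathway, and from 0 to 2 lower among the Notch genes, with 0 higher. The log2 fold change of Nrarp ran from -0.13 to 0.049, and was 0.049 without icOVA tumor 15 and 0.048 without icOVA tumor 16. Mfng passed with DESeq2 (0.80) and without icOVA tumor 16 (0.97). OVA did not pass without sgScramble tumor 1 or 5 or icOVA tumor 15, at log2 fold changes of 6.25, 5.92 and 6.05. The causes were not tested. Depth limits the genes of few counts, such as Heyl with 70 to 251 and Dlk1, Dtx1 and Hey2 with fewer.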
